A study of Mus musculus with 20 samples.

Results

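The genes of Wnt signalling described here are the secreted Wnt ligands, the R-spondins, the Frizzled and LRP receptors, the secreted antagonists and a few intracellular components. They were taken by symbol from the deposited expression table of whole mouse skin: every Wnt, Fzd, Dkk, Sfrp and Rspo gene, together with Wif1, Lrp5, Lrp6, Axin1, Axin2, Lef1, Ctnnb1, Nkd1, Nkd2 and Notum. The rule found 51 genes, each in 1 row, among the 46744 rows of the table. They are 19 Wnt ligands, 4 R-spondins, 10 Frizzled receptors, 2 LRP co-receptors, 10 secreted antagonists and 6 intracellular components.

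The mice were of the inbred laboratory strain C57BL/6, and RNA of their total skin was sequenced in 20 samples of 6 groups. Conditional knockout skin (cKO, genotype Sod2-/-), deleted for the mitochondrial superoxide dismutase gene, was sampled at 100 days (n = 3) and at 300 days (n = 3), and its controls (genotype Sod2+/+) at 100 days (n = 2) and at 300 days (n = 3). Chronologically old control skin (Sod2+/+) was sampled at 700 days (n = 4) and young control skin (Sod2+/+) at 50 days (n = 5). The labels name no Cre driver, so the cells that lost the gene are not given. Titles carry 1 prefix for the 50- and 700-day controls and another for the other 4 groups. Because the labels do not say whether these prefixes are batches, ratios were taken only within a prefix.

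The table holds 1 value per gene and group, in FPKM (fragments scaled to the length of the gene model and to the mapped reads), as the authors computed it. No value below has an error, an interval or a test, since no value per sample was used here and the read depth is unknown. A difference is given as the log2 ratio of (FPKM + 1), which understates the change of low genes, and a gene is counted as higher or lower where that ratio has a size of at least 1. Of the 51 genes, 41 reached 1 FPKM when averaged over all groups and entered the ratios, among 13009 named genes of the whole table. Deposited FPKM summed to between 496936 and 692242 per group. Scaling the groups to equal totals moved the median log2 ratio of all genes at 100 days to -0.10, against 0.02 with the deposited values. For 300 against 100 days in control skin it moved it to -0.15, against 0.03, and for the difference of the genotype ratios to 0.08, against -0.02, so small ratios depend on the scale.

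A few facts of the series touch every comparison. Sod2 stood at 17.6 FPKM in cKO and 27.7 FPKM in control skin at 100 days, and at 16.8 FPKM in cKO and 23.5 FPKM in control skin at 300 days. Of the genes on the Y chromosome, Uty, Ddx3y, Kdm5d and Eif2s3y had 14.7 to 45.1 FPKM in both cKO groups and in the 700-day controls, and at or below 0.347 FPKM in the 100-, 300- and 50-day controls. Genotype, and age in old against young skin, therefore cannot be told apart from this sex-linked difference. Keratinocyte markers were present in every group, with Krt14 between 315 and 1391 FPKM. In bulk tissue fewer cells of a type and less RNA per cell cannot be told apart.

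Wnt ligands are secreted, lipid-bearing proteins that bind a Frizzled receptor together with the co-receptor Lrp5 or Lrp6. In the canonical branch this stops the destruction complex, built on the scaffolds Axin1 and Axin2, from degrading beta-catenin (Ctnnb1), which then enters the nucleus and acts with factors such as Lef1. In skin this pathway is known for starting hair follicles and their growth phase and for the differentiation of the hair shaft, where Lef1 is a marker of the hair matrix and precortex. R-spondins strengthen the signal through the Lgr receptors, while Sfrp proteins and Wif1 bind the ligands, Dkk1, Dkk2 and Dkk4 bind the co-receptors and Notum removes the lipid of the ligand.

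The promoters of 4 of the genes that the comparisons turn on are given here, since Lef1 itself binds DNA at the core CTTTG. RefSeq windows of GRCm38.p6, 250 bases before to 50 bases after the annotated start, were found for 33 of the 51 genes (40 windows in all). The first window of Lef1 lies at chr3:131110047-131110346 and that of Fzd4 at chr7:89404116-89404415. Those of Wif1 and Wnt11 lie at chr10:121033754-121034053 and chr7:98834862-98835161. All 4 are on the plus strand and are written 5′ to 3′, with capitals marking the core on either strand (CTTTG, or CAAAG where it reads on the other strand).
Lef1: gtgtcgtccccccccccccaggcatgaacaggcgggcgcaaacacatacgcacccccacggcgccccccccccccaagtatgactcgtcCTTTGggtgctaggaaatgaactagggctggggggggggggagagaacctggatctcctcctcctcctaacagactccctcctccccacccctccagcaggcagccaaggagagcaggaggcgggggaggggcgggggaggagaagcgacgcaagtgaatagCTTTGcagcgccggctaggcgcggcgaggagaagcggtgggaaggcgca
Fzd4: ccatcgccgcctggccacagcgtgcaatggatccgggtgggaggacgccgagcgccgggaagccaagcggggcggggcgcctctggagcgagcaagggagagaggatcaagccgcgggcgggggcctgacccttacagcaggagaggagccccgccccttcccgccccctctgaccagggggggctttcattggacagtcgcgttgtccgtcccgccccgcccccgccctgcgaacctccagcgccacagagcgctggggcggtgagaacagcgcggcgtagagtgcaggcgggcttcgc
Wif1: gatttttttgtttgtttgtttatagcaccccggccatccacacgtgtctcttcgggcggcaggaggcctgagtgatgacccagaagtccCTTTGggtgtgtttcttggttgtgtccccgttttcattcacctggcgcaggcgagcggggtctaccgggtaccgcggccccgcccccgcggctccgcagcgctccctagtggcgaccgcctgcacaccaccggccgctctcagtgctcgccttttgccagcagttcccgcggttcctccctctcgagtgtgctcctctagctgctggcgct
Wnt11: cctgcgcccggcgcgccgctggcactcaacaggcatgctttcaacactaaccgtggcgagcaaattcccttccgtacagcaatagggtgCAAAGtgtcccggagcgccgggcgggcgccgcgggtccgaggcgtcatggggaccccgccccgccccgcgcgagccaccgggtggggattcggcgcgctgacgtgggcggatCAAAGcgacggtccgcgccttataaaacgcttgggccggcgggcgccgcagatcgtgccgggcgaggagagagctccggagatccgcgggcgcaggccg
The Lef1 and Wnt11 windows shown held 2 cores each, the Wif1 window 1 and the Fzd4 window none. RefSeq gives Lef1 4 windows, of which the other 3 held 2, 1 and 3 cores. The second of the 4, at chr3:131110073-131110372, overlaps the window shown, and its 2 cores are the same sites. Wnt11 has 2 windows, of which the other held none. Wif1 and Fzd4 have 1 window each. So do Fzd5 and Rspo4, which were higher in cKO skin at 100 days, and their windows, not shown, held no core. So short a motif is common: 53.9% of all 32851 promoter windows hold it, and 45% of the 40 windows of the Wnt pathway genes do. The longer form CTTTGAT, within which every match is also a core, was found in 2 of these 40 windows, in the Wnt11 window shown and in 1 window of Wnt5b, and in 3.73% of all windows. CTTTGAA was found in 5.14% of all windows and CTTTGTT in 5.85%, and among the 4 promoters above neither was present. A match is only a stretch of letters and says nothing of binding in these samples.

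**Figure D1:**
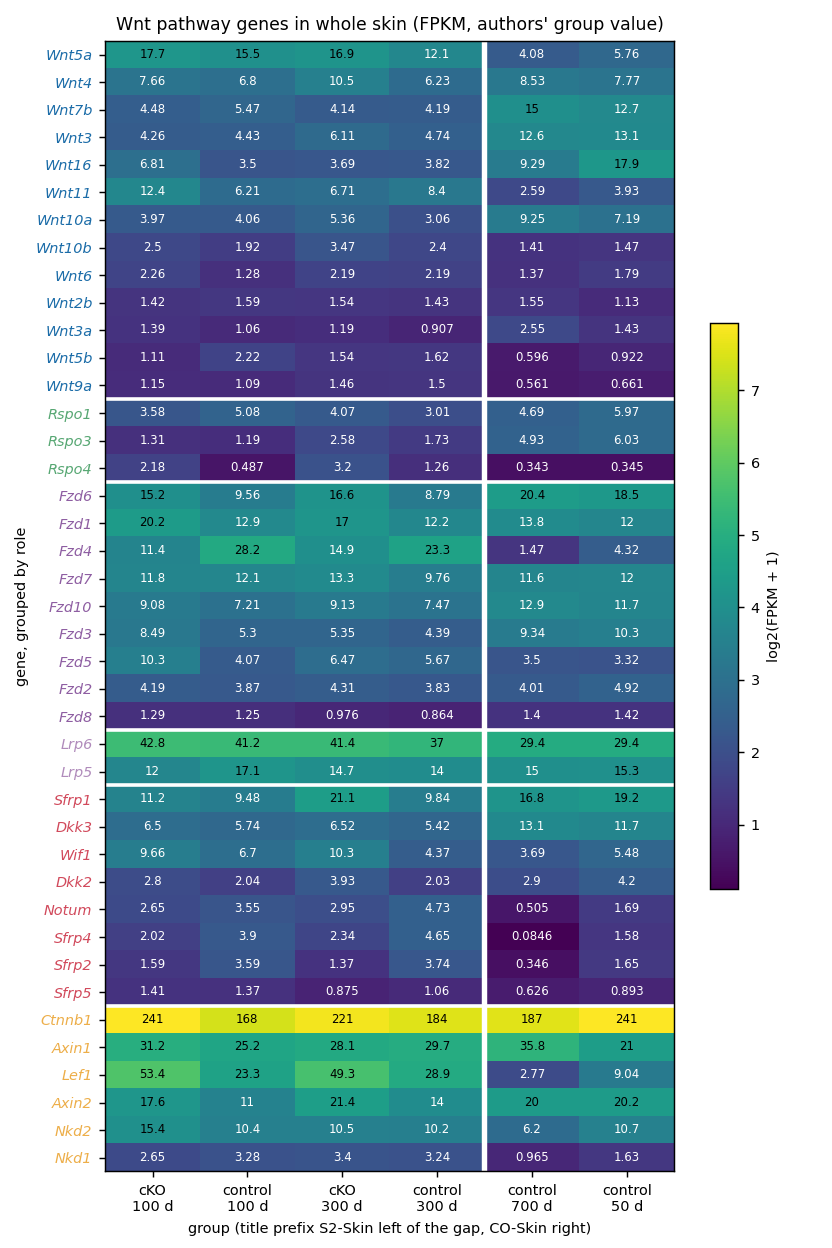
FPKM of the 41 Wnt pathway genes that entered the ratios, 1 row per gene (gene names coloured by role) and 1 column per group, with the authors' group value printed in each cell and colour showing log2(FPKM + 1). Ctnnb1 is the highest row in every group, at 168 to 241 FPKM, and the rows Lef1 and Fzd4 are lowest in the 700-day controls, at 2.77 and 1.47 FPKM.

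Wnt ligand transcripts were modest in whole skin, and no group had a ligand above 17.9 FPKM. Summed over the 19 ligands, FPKM came to 68.5 in cKO and 57.2 in control skin at 100 days, 65.7 in cKO and 53.8 in control skin at 300 days, and 70.2 and 76.4 in the 700- and 50-day controls. The sums were made up of different ligands in the groups of the different title prefixes.

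Wnt5a, a ligand best known for signalling without beta-catenin, was the highest ligand in each of the 4 groups of cKO skin and its controls. It stood at 17.7 FPKM in cKO and 15.5 FPKM in control skin at 100 days, and at 16.9 FPKM in cKO and 12.1 FPKM in control skin at 300 days. In control skin it was 4.08 FPKM at 700 days and 5.76 FPKM at 50 days. It thus made up between 22.6% and 27.1% of the ligand sum in the 100- and 300-day groups, and 5.81% of it at 700 days and 7.54% at 50 days.

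In the 700- and 50-day controls the leading ligands were instead Wnt7b, Wnt3 and Wnt16. Wnt7b and Wnt3 are epidermal ligands that act through beta-catenin. Wnt7b was 15.0 FPKM at 700 days and 12.7 FPKM at 50 days, and lay between 4.14 and 5.47 FPKM in cKO skin and its controls. Wnt3 was 12.6 FPKM at 700 days and 13.1 FPKM at 50 days, and lay between 4.26 and 6.11 FPKM in the other 4 groups. Wnt16 was 9.29 FPKM at 700 days and 17.9 FPKM at 50 days, a log2 ratio of -0.88. These levels differ between title prefixes, for which no ratio is given, since the age of the mice and any difference in preparation run together there. Basal keratinocyte markers differed between the prefixes in the same direction as Wnt7b and Wnt3. Their sum over 6 genes was 3736 FPKM at 700 days and 2486 FPKM at 50 days, and lay between 904 and 1789 FPKM in the other 4 groups, with none of the 6 at 0. Their part in the levels of these ligands was not tested.

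Wnt11, another ligand known mainly for signalling without beta-catenin, was the ligand whose genotype ratio differed most between the ages. It was 12.4 FPKM in cKO and 6.21 FPKM in control skin at 100 days (log2 ratio 0.89), and 6.71 FPKM in cKO and 8.40 FPKM in control skin at 300 days (-0.29). Wnt16 had a similar pair of ratios, at 6.81 FPKM in cKO against 3.5 FPKM in control skin at 100 days (0.80), and 3.69 FPKM in cKO against 3.82 FPKM in control skin at 300 days (-0.04). Wnt4 had the greater ratio at the later age, at 7.66 FPKM in cKO and 6.80 FPKM in control skin at 100 days (0.15), and 10.5 FPKM in cKO and 6.23 FPKM in control skin at 300 days (0.67). None of these ratios reached the size counted.

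**Figure D2:**
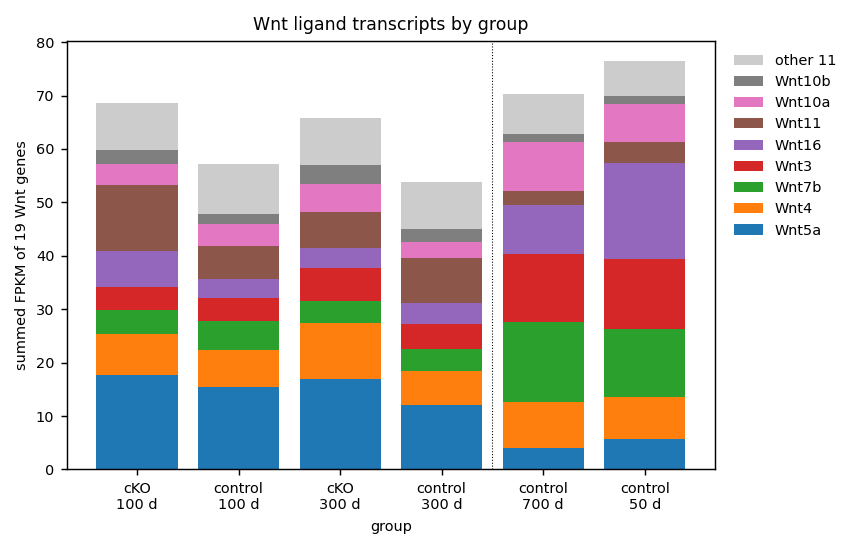
Summed FPKM of the 19 Wnt ligands (vertical axis) in each group (horizontal axis), stacked by gene for the 8 ligands with the highest mean, with the other 11 in grey; a dotted line separates the title prefixes. Wnt5a is the largest block in cKO skin and its controls (12.1 to 17.7 FPKM), while Wnt7b, Wnt3 and Wnt16 are the larger blocks at 700 and 50 days.

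Several ligand genes are neighbours in the genome. Wnt6 and Wnt10a lie 6.2 kb apart on chromosome 1, both on the plus strand. Wnt10a, which is mutated in human ectodermal dysplasias, was between 3.06 and 9.25 FPKM, and Wnt6 was between 1.28 and 2.26 FPKM. Wnt1 and Wnt10b lie 11.7 kb apart on chromosome 15, and Wnt1 was listed at 0 in every group but the 100-day cKO (0.0422 FPKM), while Wnt10b was between 1.41 and 3.47 FPKM. Wnt9b, 24.3 kb from Wnt3 on chromosome 11, stayed at or below 0.105 FPKM. Wnt3a and Wnt9a, 16.2 kb apart on the same chromosome, were between 0.907 and 2.55 FPKM and between 0.561 and 1.5 FPKM.

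The remaining ligands were low. Wnt2b was between 1.13 and 1.59 FPKM in the 6 groups. Wnt5b was 1.11 FPKM in cKO and 2.22 FPKM in control skin at 100 days (log2 ratio -0.61), and its annotated span overlaps Fbxl14 on the other strand. Wnt2, Wnt7a, Wnt8a, Wnt8b, Wnt9b and Wnt1 had means below 1 FPKM and entered no ratio. Their highest group values were 1.59, 0.511, 0.260, 0.212, 0.105 and 0.0422 FPKM. Just above the filter lay Sfrp5, with a mean of 1.04 FPKM, and just below it Wnt2, with a mean of 0.708 FPKM.

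The R-spondins were also low. Rspo1 was 3.58 FPKM in cKO and 5.08 FPKM in control skin at 100 days, 4.07 FPKM in cKO and 3.01 FPKM in control skin at 300 days, and 4.69 FPKM at 700 days and 5.97 FPKM at 50 days in control skin. Rspo3 was 4.93 FPKM at 700 days and 6.03 FPKM at 50 days, and between 1.19 and 2.58 FPKM in cKO skin and its controls. Rspo2 stayed at or below 0.267 FPKM.

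Rspo4, which is known from nail formation in humans, was the only R-spondin past the size counted, as higher in cKO skin at 100 days. The genotype ratios of Rspo1 were -0.41 at 100 days and 0.34 at 300 days, and those of Rspo3 were 0.07 and 0.39. Rspo4 stood at 2.18 FPKM in cKO and 0.487 FPKM in control skin at 100 days, a log2 ratio of 1.10. At 300 days it was 3.20 FPKM in cKO and 1.26 FPKM in control skin, a log2 ratio of 0.90, which came to 1.08 with a pseudocount of 0.5. In control skin it was 0.343 FPKM at 700 days and 0.345 FPKM at 50 days. Rspo4 lies on chromosome 2 from 151842927 to 151874668, and its span overlaps the antisense transcript Rspo4os. Libraries were directional, but it is not stated whether counting used the strand.

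Among the receptors, Fzd4 and Fzd5 stood out at 100 days. Fzd4, the receptor for the ligand Norrin as well as for Wnts and known from retinal vessels, was lower in cKO skin. It was 11.4 FPKM in cKO and 28.2 FPKM in control skin at 100 days (log2 ratio -1.24), and 14.9 FPKM in cKO and 23.3 FPKM in control skin at 300 days (-0.61). It was lower in old skin as well, at 1.47 FPKM at 700 days against 4.32 FPKM at 50 days (-1.11). Fzd4 was the highest Frizzled in both control groups of the cKO and the fourth highest in cKO skin at 100 days.

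The annotation puts Fzd4 on chromosome 7, from 89404355 to 89413134, and no other gene overlaps it. Adipocyte and gland epithelium markers moved with it in each of these comparisons. The summed level of the adipocyte markers over 7 genes was 752 FPKM in cKO and 2117 FPKM in control skin at 100 days, 687 FPKM in cKO and 1522 FPKM in control skin at 300 days, and 111 FPKM at 700 days and 383 FPKM at 50 days in control skin. All 7 were lower at 100 days, 6 at 300 days and 6 in old skin, and none was at 0. Gland epithelium markers, over 7 genes, summed to 24.7 FPKM in cKO and 413 FPKM in control skin at 100 days, 12.0 FPKM in cKO and 124 FPKM in control skin at 300 days, and 5.41 FPKM at 700 days and 45.2 FPKM at 50 days in control skin. Of the 7, 6 were lower at 100 days, 7 at 300 days and 5 in old skin, with median log2 ratios of -4.79, -3.28 and -2.37, and Wfdc2 was at 0 in the 300-day cKO. Endothelial markers, over 5 genes, summed to 49.5 FPKM in cKO and 67.1 FPKM in control skin at 100 days, 37.6 FPKM in cKO and 64.1 FPKM in control skin at 300 days, and 21.4 FPKM at 700 days and 33.6 FPKM at 50 days, with none of the 5 past the size counted. The part of any of these cell types in the level of Fzd4 was not tested.

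Fzd5 was 10.3 FPKM in cKO and 4.07 FPKM in control skin at 100 days, a log2 ratio of 1.15, and 6.47 FPKM in cKO and 5.67 FPKM in control skin at 300 days, a log2 ratio of 0.16. It was 3.5 FPKM at 700 days and 3.32 FPKM at 50 days. Within its title prefix the 100-day cKO was thus the group apart for this receptor. Inner root sheath and melanocyte markers stood apart in the same group. The sum of 9 inner root sheath markers was 5354 FPKM in cKO and 1585 FPKM in control skin at 100 days, with 8 of the 9 higher, and 2525 FPKM in cKO and 2448 FPKM in control skin at 300 days, with none past the size counted. The sum of 5 melanocyte markers was 209 FPKM in cKO and 98.7 FPKM in control skin at 100 days, with 4 of the 5 higher, and 79.5 FPKM in cKO and 118 FPKM in control skin at 300 days. Their part in the level of Fzd5 was not tested. Its annotated span, on chromosome 1 from 64730558 to 64737751, overlaps the predicted gene Gm38058 on the other strand.

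The other Frizzled receptors differed less. Fzd6, known in mice for orienting hairs, was 15.2 FPKM in cKO and 9.56 FPKM in control skin at 100 days (0.62), and 16.6 FPKM in cKO and 8.79 FPKM in control skin at 300 days (0.85). Fzd1 was 20.2 FPKM in cKO and 12.9 FPKM in control skin at 100 days (0.61), and 17.0 FPKM in cKO and 12.2 FPKM in control skin at 300 days (0.45). Both had higher values in cKO skin at each age, short of the size counted.

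Fzd3 was 8.49 FPKM in cKO and 5.30 FPKM in control skin at 100 days, and Fzd10 and Fzd7 lay between 7.21 and 12.9 FPKM and between 9.76 and 13.3 FPKM over the 6 groups. Fzd2 and Fzd8 lay between 3.83 and 4.92 FPKM and between 0.864 and 1.42 FPKM. Fzd9 had a highest value of 0.741 FPKM and entered no ratio. Summed over the 10 Frizzled genes, FPKM lay between 76.8 and 92.1 in all groups, so that the lower Fzd4 of cKO skin stood beside higher values of other receptors.

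The co-receptors varied little. Lrp6 was between 29.4 and 42.8 FPKM, with 42.8 FPKM in cKO and 41.2 FPKM in control skin at 100 days, 41.4 FPKM in cKO and 37.0 FPKM in control skin at 300 days, and 29.4 FPKM at both 700 and 50 days. Lrp5 was 12.0 FPKM in cKO and 17.1 FPKM in control skin at 100 days (-0.48), and between 14.0 and 15.3 FPKM in the other groups. In each group Lrp6 was the higher of the pair.

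The secreted antagonists split into genes that were higher and genes that had lower values in cKO skin. Wif1, Wnt inhibitory factor 1, was 9.66 FPKM in cKO and 6.70 FPKM in control skin at 100 days (log2 ratio 0.47), and 10.3 FPKM in cKO and 4.37 FPKM in control skin at 300 days (1.08). In control skin it was 3.69 FPKM at 700 days and 5.48 FPKM at 50 days (-0.47). Wif1 therefore passed the size counted at 300 days, and both cKO groups had more of it than either control group of their title prefix.

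Sfrp1, the highest antagonist in every group, was 11.2 FPKM in cKO and 9.48 FPKM in control skin at 100 days (0.22), and 21.1 FPKM in cKO and 9.84 FPKM in control skin at 300 days (1.03). Old control skin had 16.8 FPKM and young control skin 19.2 FPKM. The 300-day cKO was thus above its own control. Basal keratinocyte markers lay in the same direction as Wif1 and Sfrp1 between cKO and control skin, with a sum of 1304 FPKM in cKO and 904 FPKM in control skin at 100 days, and of 1789 FPKM in cKO and 930 FPKM in control skin at 300 days. Of the 6, only Krt14 passed the size counted at 300 days, at 882 FPKM in cKO and 328 FPKM in control skin (1.42). In old against young control skin these markers went the other way, with 3736 FPKM at 700 days and 2486 FPKM at 50 days. Wif1 (-0.47) and Sfrp1 (-0.18) had lower values at 700 days. Hair matrix and cortex markers, given below with Lef1, had higher sums in cKO skin at both ages and a lower sum in old skin. Of these 11 markers, 6 were higher in cKO skin at 300 days. The part of both lists in the levels of both antagonists was not tested. Dkk2, which binds the co-receptors, was 2.80 FPKM in cKO and 2.04 FPKM in control skin at 100 days (0.32), and 3.93 FPKM in cKO and 2.03 FPKM in control skin at 300 days (0.70).

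Sfrp2 and Sfrp4, both made by fibroblasts, had lower values in cKO skin at both ages and in old skin. Sfrp2 was 1.59 FPKM in cKO and 3.59 FPKM in control skin at 100 days (-0.82), and 1.37 FPKM in cKO and 3.74 FPKM in control skin at 300 days. The ratio at 300 days, -1.0 after rounding, fell just short of the size counted and was -1.18 with a pseudocount of 0.5. At 700 days Sfrp2 was 0.346 FPKM against 1.65 FPKM at 50 days (-0.98).

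Sfrp4 was 2.02 FPKM in cKO and 3.90 FPKM in control skin at 100 days (-0.70), and 2.34 FPKM in cKO and 4.65 FPKM in control skin at 300 days (-0.76). In control skin it stood at 0.0846 FPKM at 700 days and 1.58 FPKM at 50 days (-1.25), the lowest value of any gene in the heat map. Together these 2 genes summed to 3.61 FPKM in cKO and 7.48 FPKM in control skin at 100 days, 3.72 FPKM in cKO and 8.39 FPKM in control skin at 300 days, and 0.430 FPKM at 700 days and 3.23 FPKM at 50 days. The other 8 antagonists summed to 34.6 FPKM in cKO and 28.9 FPKM in control skin at 100 days, and to 45.7 FPKM in cKO and 27.5 FPKM in control skin at 300 days.

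Fibroblast markers did not follow Sfrp2 and Sfrp4 in every comparison. Their sum over 9 genes was 1584 FPKM in cKO and 2682 FPKM in control skin at 100 days, 4145 FPKM in cKO and 2524 FPKM in control skin at 300 days, and 835 FPKM at 700 days and 1428 FPKM at 50 days. At 100 days Dpp4 (1.33) was higher in cKO skin, and Lum (-1.78) and Col3a1 (-1.06) were lower. Col3a1 was the largest part of the sum at that age, at 881 FPKM in cKO and 1842 FPKM in control skin. Dcn (0.19) also had a higher value in cKO skin, and Pdgfra, Col1a1, Col1a2, Dpt and Pi16 had lower ones. At 300 days 2 of the 9, Col1a1 and Col1a2, were higher in cKO skin and 1, Pi16, was lower. The collagen gene Col3a1 was the largest part of the sum at 300 days, at 2608 FPKM in cKO and 1736 FPKM in control skin (0.59). Dcn (0.63) and Lum (0.31) also had higher values in cKO skin. Pdgfra (-0.58), Dpp4 (-0.46) and Dpt (-0.21) had lower ones, as Sfrp2 and Sfrp4 did. Pdgfra, a receptor that defines dermal fibroblasts, was 13.5 FPKM in cKO and 20.8 FPKM in control skin at 300 days. None of the 9 was at 0. The adipocyte and gland epithelium sums given above were lower in all 3 comparisons, as both antagonists were in value, and the part of any of these lists was not tested.

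Notum, the enzyme that inactivates Wnts, was 2.65 FPKM in cKO and 3.55 FPKM in control skin at 100 days (-0.32), and 2.95 FPKM in cKO and 4.73 FPKM in control skin at 300 days (-0.54). Old control skin had 0.505 FPKM and young control skin 1.69 FPKM (-0.84, and -1.12 with a pseudocount of 0.5). Its span overlaps 2 antisense transcripts, Notumos and Myadml2os. Dkk3, a divergent member of its family, was 13.1 FPKM at 700 days and 11.7 FPKM at 50 days and between 5.42 and 6.52 FPKM in the other groups. Sfrp5 was between 0.626 and 1.41 FPKM. Dkk1 and Dkk4, well known antagonists of hair follicle formation, were at or below 0.105 and 0.235 FPKM in all groups.

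Of the intracellular components, Lef1 differed most. Lef1 was higher in cKO skin at 100 days, at 53.4 FPKM in cKO and 23.3 FPKM in control skin (log2 ratio 1.16). At 300 days it was 49.3 FPKM in cKO and 28.9 FPKM in control skin (0.75). In control skin it was lower at 700 days, at 2.77 FPKM against 9.04 FPKM at 50 days (-1.41). Both cKO groups were thus above both control groups of their title prefix, and the 700-day controls were below the 50-day controls. Lef1 lies on chromosome 3 from 131110471 to 131224356, and its span overlaps the predicted genes Gm42449 and Gm43352.

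Markers of the hair matrix and cortex, the cells in which Lef1 is most abundant in a growing follicle, moved with it. Their sum over 11 genes was 1098 FPKM in cKO and 591 FPKM in control skin at 100 days, 1140 FPKM in cKO and 527 FPKM in control skin at 300 days, and 82.2 FPKM at 700 days and 163 FPKM at 50 days. Of the 11, 3 were higher at 100 days, 6 were higher at 300 days and 3 were lower in old skin, and none was at 0. Inner root sheath markers, given above with Fzd5, summed to 643 FPKM at 700 days and 881 FPKM at 50 days. The part of both lists in the levels of Lef1 and Wnt11 was not tested.

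**Figure D3:**
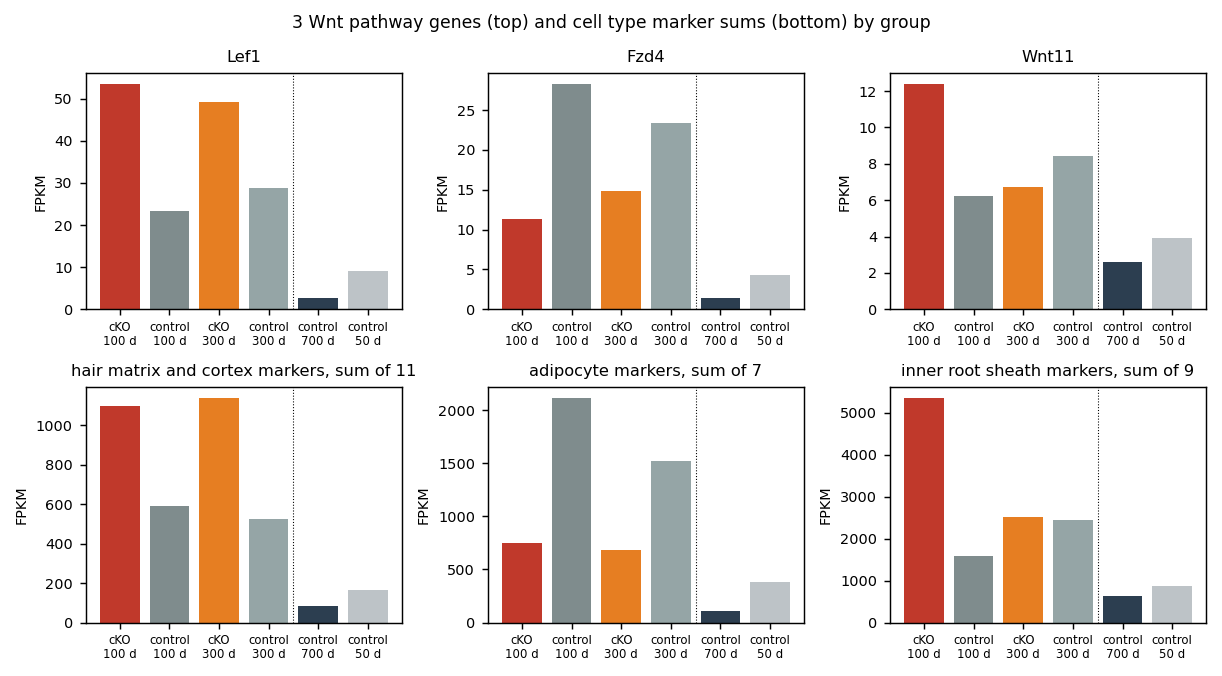
FPKM of Lef1, Fzd4 and Wnt11 (top row) above the summed FPKM of hair matrix and cortex, adipocyte and inner root sheath markers (bottom row), as bars for each group, with a dotted line between title prefixes; the pairs were set together after their values were seen. Lef1 and the hair matrix sum are highest in both cKO groups (53.4 and 49.3 FPKM for Lef1), and Fzd4 and the adipocyte sum are highest in the 100- and 300-day controls (28.2 and 23.3 FPKM for Fzd4).

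Other lists moved less evenly. Hair follicle stem cell markers, over 7 genes, summed to 1084 FPKM in cKO and 696 FPKM in control skin at 100 days, 845 FPKM in cKO and 853 FPKM in control skin at 300 days, and 2363 FPKM at 700 days and 3139 FPKM at 50 days. Krt15 made up most of this sum, at 992 FPKM in cKO and 601 FPKM in control skin at 100 days. At 300 days it was 759 FPKM in cKO and 747 FPKM in control skin. Of the 7, Fgf18 alone passed the size counted, as higher in cKO skin at 100 days (1.57). At 300 days Sox9 (0.79), Tbx1 (0.67) and Lhx2 (0.63) had higher values in cKO skin. Cd34 (-0.88), Nfatc1 (-0.37) and Fgf18 (-0.15) had lower ones. Dermal papilla markers, over 10 genes, summed to 80.3 FPKM in cKO and 113 FPKM in control skin at 100 days, 84.1 FPKM in cKO and 91.3 FPKM in control skin at 300 days, and 54.2 FPKM at 700 days and 61.3 FPKM at 50 days. At 100 days Trps1 alone passed the size counted, at 21.8 FPKM in cKO and 54.5 FPKM in control skin (-1.29). Crabp1 (-0.62), Vcan (-0.49) and Sox18 (-0.47) also had lower values in cKO skin, and Prdm1 (0.83) and Bmp4 (0.63) had higher ones. Hhip (-0.08), Corin (-0.02) and Alpl (0.01) differed little, and the median of the 9 with a ratio was -0.08. The sum of melanocyte markers was the higher in cKO skin at 100 days alone, as the level of Wnt11 was, and came to 9.64 FPKM at 700 days and 26.6 FPKM at 50 days. Lymphocyte markers, over 6 genes, were apart in the 300-day controls, at 1.89 FPKM in cKO and 91.6 FPKM in control skin.

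Axin2, a scaffold of the destruction complex that is itself switched on by the canonical pathway, did not reach the size counted in any comparison. It was 17.6 FPKM in cKO and 11 FPKM in control skin at 100 days (0.63), and 21.4 FPKM in cKO and 14.0 FPKM in control skin at 300 days (0.58). In control skin it stood at 20.0 FPKM at 700 days and 20.2 FPKM at 50 days (-0.02). The values were thus higher in cKO than in control skin at each age and level between old and young control skin, where Lef1 was lower.

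Axin1, the constitutive scaffold, was 35.8 FPKM at 700 days and 21.0 FPKM at 50 days (0.74), the largest positive ratio of any of the 41 genes in old skin. It was 31.2 FPKM in cKO and 25.2 FPKM in control skin at 100 days and 28.1 FPKM in cKO and 29.7 FPKM in control skin at 300 days. Ctnnb1, whose row also carries the microRNA gene Mir7090 that lies within it, was 241 FPKM in cKO and 168 FPKM in control skin at 100 days (0.52), 221 FPKM in cKO and 184 FPKM in control skin at 300 days (0.26), and 187 FPKM at 700 days and 241 FPKM at 50 days (-0.37). Its span also overlaps Ulk4 on the other strand.

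Nkd1 and Nkd2 bind Dishevelled and damp the pathway. Nkd2 was 15.4 FPKM in cKO and 10.4 FPKM in control skin at 100 days (0.52), 10.5 FPKM in cKO and 10.2 FPKM in control skin at 300 days (0.04), and 6.20 FPKM at 700 days and 10.7 FPKM at 50 days (-0.70). Nkd1 was between 0.965 FPKM, at 700 days, and 3.40 FPKM, in the 300-day cKO.

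Counted over all roles, few of the genes passed the size counted in any comparison. At 100 days 3 of 41 genes were higher in cKO than in control skin, Fzd5, Lef1 and Rspo4, or 7.32%, against 2.31% of all 13009 genes. Only Fzd4 was lower, or 2.44%, against 4.34% of all genes. With groups scaled to equal totals the split was 3 higher and 2 lower, as Sfrp2 came to -1.03. The median log2 ratio of the 41 genes was 0.15, against 0.02 for all genes, and 28 of them (68.3%) had a ratio above 0, against 51.7% of all genes. After scaling to equal totals 23 of the 41 did, against 40.98% of all genes.

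At 300 days 2 of 41 genes were higher in cKO skin, Sfrp1 and Wif1, or 4.88%, against 1.98% of all genes. None was lower, against 5.22% of all genes. With a pseudocount of 0.5, 3 were higher, as Rspo4 came to 1.08, and 1 was lower, Sfrp2. With equal totals Sfrp2 also passed as lower. The median log2 ratio was 0.20, against -0.01 for all genes, and 30 of the 41 (73.2%) had a ratio above 0, against 48.6% of all genes.

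The genotype comparisons at the 2 ages use different samples, and their directions are set side by side here. Both carry the sex-linked difference given above, in the same direction. A sign shared by the 2 ages therefore cannot be told apart from that difference. Of the 41 genes, 29 had ratios of the same sign at both ages, or 70.7%, against 63.3% of all genes. In 23 both ratios were above 0. In 6 both were below 0, namely Fzd4, Notum, Sfrp2, Sfrp4, Wnt5b and Wnt7b. The difference of the ratios, 300 minus 100 days, passed the size counted in Wnt11 alone, as a lower value (-1.17), against 4.94% of all genes lower and 3.95% higher. Fzd5 followed at -0.99.

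In old against young control skin 3 of 41 genes were lower at 700 days, Lef1, Fzd4 and Sfrp4, or 7.32%, against 3.25% of all genes. None was higher, against 0.623% of all genes. With equal totals, and with a pseudocount of 0.5, Sfrp2 and Notum were lower too. The median log2 ratio was -0.13, against -0.03 for all genes. The ratio was above 0 in 12 of the 41 genes (29.3%) with the deposited values, against 44.7% of all genes. After scaling to equal totals it was above 0 in 19, against 58.1% of all genes, and after scaling to a common median also in 19, against 52.8%. The median of the 41 was -0.07 on both of these scales, against 0.06 for all genes with equal totals and 0.02 with a common median. Skeletal muscle markers, over 6 genes, summed to 71.1 FPKM at 700 days and 2797 FPKM at 50 days. All 5 of them with a ratio were lower, with a median of -5.38. At 100 days their sum was 9980 FPKM in cKO and 15252 FPKM in control skin, with 2 of the 5 lower. At 300 days it was 14256 FPKM in cKO and 12837 FPKM in control skin, with none past the size counted. The part of muscle in the levels of Lef1, Fzd4 and Sfrp4 was not tested.

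**Figure D4:**
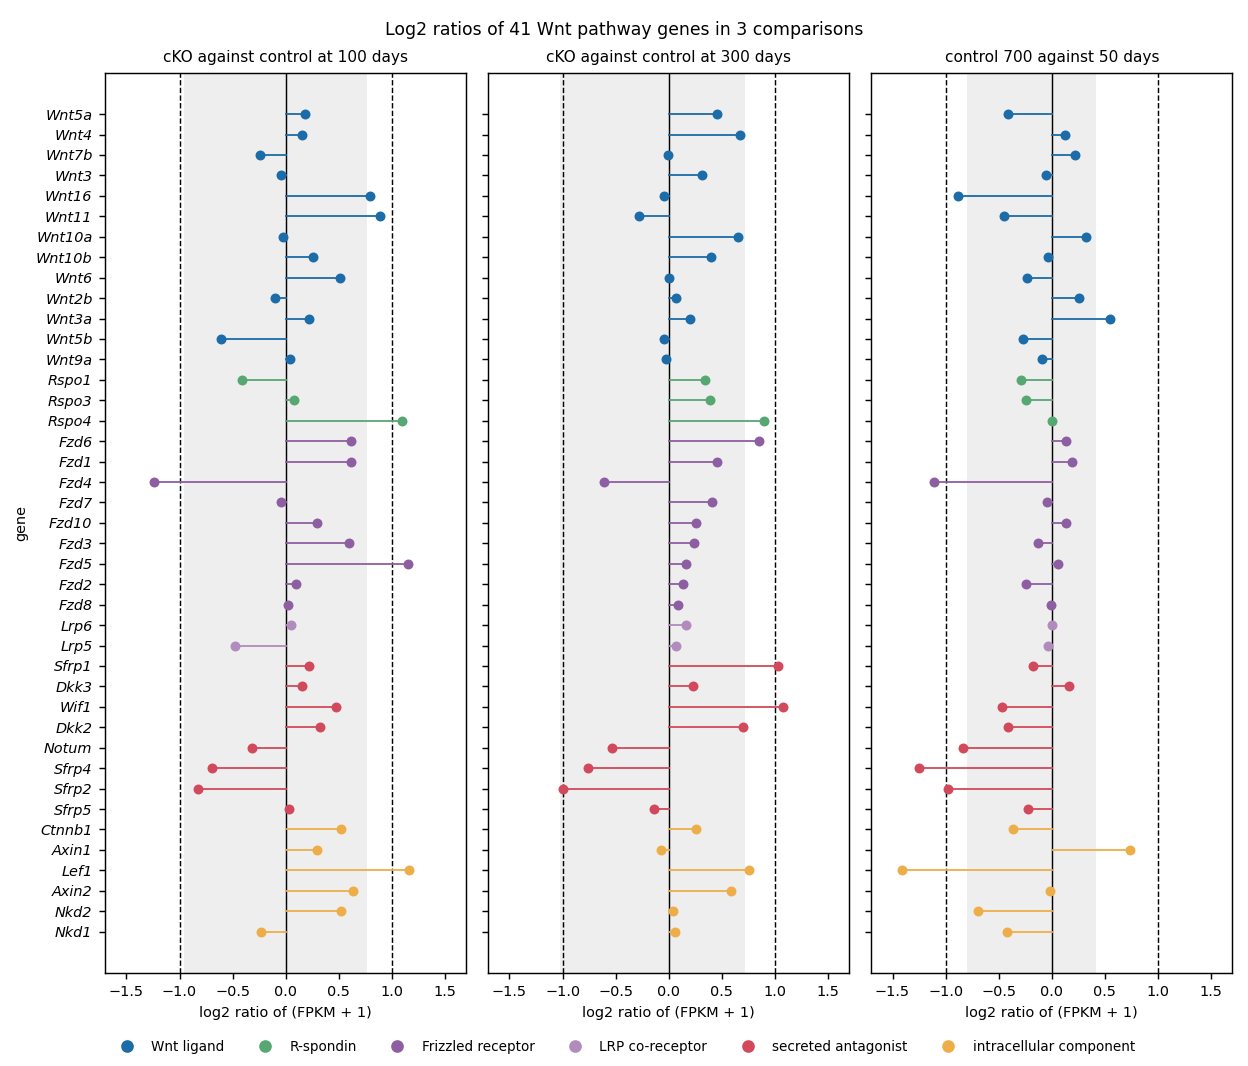
Log2 ratio of (FPKM + 1) of 41 Wnt pathway genes (rows, coloured by role) for the genotypes at each age and for 700- against 50-day control skin; a point right of 0 is higher in cKO or at 700 days, dashed lines mark the size counted, and the grey band holds the central 90% of all 13009 genes. Lef1 lies right of 0 in both cKO panels (1.16 and 0.75) and left of it in the age panel (-1.41), and Fzd4 lies left of 0 in all 3.

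Between 300 and 100 days no Wnt pathway gene passed the size counted in either genotype. In control skin the ratios lay between -0.60 for Rspo1 and 0.60 for Rspo4, while 3.61% of all genes were higher and 1.08% lower. In cKO skin they lay between -0.79 for Wnt11 and 0.86 for Sfrp1, while 2.51% of all genes were higher and 1.58% lower. These comparisons share samples with the genotype comparisons, so they are no separate evidence on the same genes.

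Other genes of the pathway were described from a separate list of 64, of which 62 were in the table and 58 entered the ratios. At 100 days none of the 58 was higher and 1 was lower in cKO skin, against 2.31% of all genes higher and 4.34% lower. The lower gene was Wisp2, a secreted matricellular protein, at 1.19 FPKM in cKO and 3.96 FPKM in control skin. At 300 days none was higher and 2 were lower, against 1.98% of all genes higher and 5.22% lower. Wisp2 was 1.33 FPKM in cKO and 4.73 FPKM in control skin, and Tcf7, a relative of Lef1 that is abundant in T cells, was 5.18 FPKM in cKO and 12.5 FPKM in control skin. Tcf7 was also the only gene of the list that was higher at 300 than at 100 days in control skin, against 3.61% of all genes. It stood at 12.5 FPKM at 300 days against 4.21 FPKM at 100 days. Lymphocyte markers stood apart in the 300-day controls as well, and the part of lymphocytes in the level of Tcf7 was not tested.

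In old against young control skin only Lgr6 was lower among the 58, against 3.25% of all genes. None was higher, against 0.623% of all genes. Lgr6, an R-spondin receptor that marks stem cells of the upper hair follicle, was 10.6 FPKM at 700 days and 24.9 FPKM at 50 days. Its relatives Lgr4 and Lgr5 were 27.4 and 7.0 FPKM at 700 days and 22.5 and 7.04 FPKM at 50 days. In cKO skin Lgr5, a marker of follicle stem cells, was 9.84 FPKM against 5.40 FPKM in control skin at 100 days, and 9.79 FPKM in cKO against 5.88 FPKM in control skin at 300 days.

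Genes that make and export the ligands were present in all groups. Porcn, which attaches the lipid to Wnts, was 5.30 FPKM in cKO and 2.49 FPKM in control skin at 100 days, 4.53 FPKM in cKO and 2.59 FPKM in control skin at 300 days, and 3.67 FPKM at 700 days and 1.92 FPKM at 50 days. Wls, which carries them to the cell surface, was between 47.7 and 65.3 FPKM. The kinase Gsk3b was between 34.2 and 41.4 FPKM and the scaffold Apc between 28.1 and 33.5 FPKM. The difference of the genotype ratios between ages passed the size counted in 3 genes of this list. Of all genes, 3.95% were higher and 4.94% lower by this difference. Tle2, a co-repressor, and the antagonist Frzb had the greater ratio at 300 days, and Tcf7 the lower. Frzb was 1.20 FPKM in cKO and 3.0 FPKM in control skin at 100 days, and 1.48 FPKM in cKO and 1.25 FPKM in control skin at 300 days.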

How the data were processed

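Ribosomal RNA was removed from total skin RNA by either of 2 kits, per the labels' protocols, which do not say which sample had which. Directional libraries were read for 75 cycles. HISAT2, Cufflinks, Cuffdiff and the build mm10 are named, per the submitters' processing notes. Versions, the annotation and how replicates were combined are not given in the sources used here. FPKM were deposited by the authors, 1 value per gene and group, so depth is unknown and no replicate spread could be computed.

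Groups came from the source names. Rows with at least 1 named gene were kept, without predicted genes, microRNAs and small nucleolar RNAs, and of several rows for a symbol the one highest on average was taken, which left 21180 genes. Of these, 13009 averaged 1 FPKM or more across groups and entered log2 ratios of (FPKM + 1). Nothing was tested, so there are no p-values. The comparisons were fixed with limma as the test had there been values per sample. The Wnt pathway genes, the marker lists and the other lists were chosen with earlier results of these data known. Members averaging 5 FPKM or more or past the size counted were to be named with all their values, which stand in the text or, for those given there by their range, in the heat map. Counting was tested on simulated group tables. Alternatives were pseudocounts of 0.1 and 0.5, no filter, a mean of at least 5 FPKM, a common median, equal totals, summed rows and rows of 1 symbol only.

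Coordinates and overlaps are from GENCODE M21 of GRCm38 (mm10), 1-based. Promoters are from RefSeq, GRCm38.p6. Python 3.11.15, pandas 2.3.3, numpy 2.4.6 and matplotlib 3.10.9 were used.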

Additional observations from a re-analysis of the deposited data

Results flagged for a closer look

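Wnt11 was singled out because the difference of its genotype ratios between the 2 ages passed the size counted, with ratios of opposite sign. No other of the 41 genes passed that size with the pseudocount of 1. It was 12.4 FPKM in cKO and 6.21 FPKM in control skin at 100 days (log2 ratio 0.89), and 6.71 FPKM in cKO and 8.40 FPKM in control skin at 300 days (-0.29). The difference, 300 minus 100 days, was -1.17, and between -1.30 and -1.11 under the alternatives. With 1 value per group this difference was not tested.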

How the results depend on the processing

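Each count of genes past the size counted was recomputed under 8 alternatives, and no log2 ratio past that size changed sign or fell below it, though Rspo4 and Sfrp4 drop out with a mean of at least 5 FPKM. With a pseudocount of 0.1 the genes lower numbered 2 in cKO skin at 100 days, 1 at 300 days, 5 in old skin and 2 in the difference between ages, and 1 gene, Rspo4, was higher at 300 than at 100 days in control skin. With a pseudocount of 0.5 they numbered 1 at 300 days, 5 in old skin and 2 in the difference between ages. With either pseudocount the genes higher in cKO skin at 300 days numbered 3, against 2. Of all genes, 3.25% were higher there with a pseudocount of 0.1 and 2.44% with 0.5. With equal totals the genes lower numbered 2 at 100 days, 1 at 300 days and 5 in old skin. The genes that moved across the size were Sfrp2, Rspo4, Notum and Fzd5, and all but Fzd5 averaged under 5 FPKM. With no filter, a mean of at least 5 FPKM, a common median, summed rows or rows of 1 symbol, every count stayed within 1.5 times. No replicate could be left out, and the depth of a group is unknown. No paired analysis was possible because the table holds 1 value per group.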
